A study of Mus musculus with 6 samples.

Results

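Immediate early genes are transcribed within minutes of a signal without new protein synthesis, and in T cells the T cell receptor switches them on through MAP kinases, calcium and calcineurin. Their products are mostly transcription factors (AP-1, EGR and NR4A) together with the phosphatases, mRNA decay proteins and antiproliferative factors that end the response, and further activation-induced genes such as IRF4, MYC and PIM1 follow them. Lymphocytes of the gut epithelium are known for carrying part of this program at rest. A set of 40 such genes, listed by name, was described in sorted mouse CD4+ T cells. A probe of that name was found for 39 of them, each with 1 probe, among 19321 named genes on the array, and Fosl1 was not analysed here.

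RNA was measured on 6 single-dye oligonucleotide microarrays, with 1 array for each group of male C57BL/6 mice. Old mice were 89 weeks of age and young mice were 5 weeks of age. The groups were old IEL cd27cd28 and old IEL others, which are further cell fractions of old small intestinal intraepithelial lymphocytes (IEL) named here as in the labels because their gates are not given for the arrays, and CD3+CD4+ T cells from old IEL, young IEL, old spleen (SP) and young SP. The labels put 4 to 6 mice behind a group without stating whether they were pooled. With 1 array per group there was no test, SD or replicate check, so that every difference below is a difference between arrays. IEL were released from the gut by warm shaking and a density gradient while SP cells were mashed out of the organ, and tissue and preparation cannot be told apart. In bulk RNA, fewer cells of a type and less RNA per cell cannot be told apart either.

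Signal is the normalised intensity of a probe on a linear scale on which the median of detected probes is 25 on each array, and between 72.2% (old IEL CD4) and 85.1% (old IEL others) of probes were detected. Calls of higher or lower were kept for genes that differed over 2-fold between arrays, with a signal over 100 on the brighter one. Genes bright enough for a call made up more of the set than of the array in every comparison. Shares of calls in the set and over all genes are therefore not at like brightness. Repeated spots of 1 control RNA on an array differed by a log2 SD of 0.18 between 2 spots, and a log2 difference within 0.36 lies within 2 SD of that spot error. This is a mean over 2 control RNAs and 6 arrays. The SD of a single spot ran from 0.08 (old IEL cd27cd28) to 0.21 (young IEL CD4), so 0.36 is narrow for comparisons with young IEL CD4. No local background was subtracted, and this background was 60.2% to 70.9% of the spot intensity at the median of probes over 100. When it was removed with a model (normexp), 6 of the 29 called differences of these genes kept their call and 4 changed sign. Kept were Klf4 for age in SP CD4, and Nr4a2 and Pim1 for age in IEL CD4. Between tissues Irf4 and Zfp36l1 were kept in young and Nr4a2 in old mice. All other calls below were lost or changed sign with normexp, also where this is not said beside the fold. The model was run with an offset of 50 added to each corrected intensity, which by itself draws log2 differences towards 0. Calls lost to the offset and to the background removal cannot be told apart. T cell markers were detected on every array, with Cd4 at 892, 664, 431 and 472 in old cd27cd28, old others, old CD4 and young CD4 of IEL and at 535 and 361 in old and young SP CD4. Of the markers of other cells, 12 epithelial genes summed to 2321 in old IEL others and to between 203 and 686 on the other arrays, and 8 myeloid genes to 915 in old IEL others and to between 107 and 215 on the others, with Itgam not above background on any. The sums of 4 B cell genes lay between 57.2 and 138, and Cd8b1, of the CD8 beta chain, was between 231 and 643 on all arrays although the CD4 samples were sorted as CD3+CD4+.

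Among the 4 CD4+ T cell arrays, young SP was the array on which these genes were most often dimmest. Of 36 genes of the set detected on all 6 arrays, 24 had their lowest signal in young SP CD4, as did 14.8% of all 13533 such genes, and 2 had their highest signal there, as did 32.5% of all genes. The highest signal was in old IEL CD4 for 6 (9.42% of all genes), in young IEL CD4 for 11 (13.9% of all genes) and in old SP CD4 for 17, where the share of all genes was 44.2%. After quantile normalization 26 of 36 were lowest in young SP CD4, as were 23.2% of all genes.

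**Figure D1:**
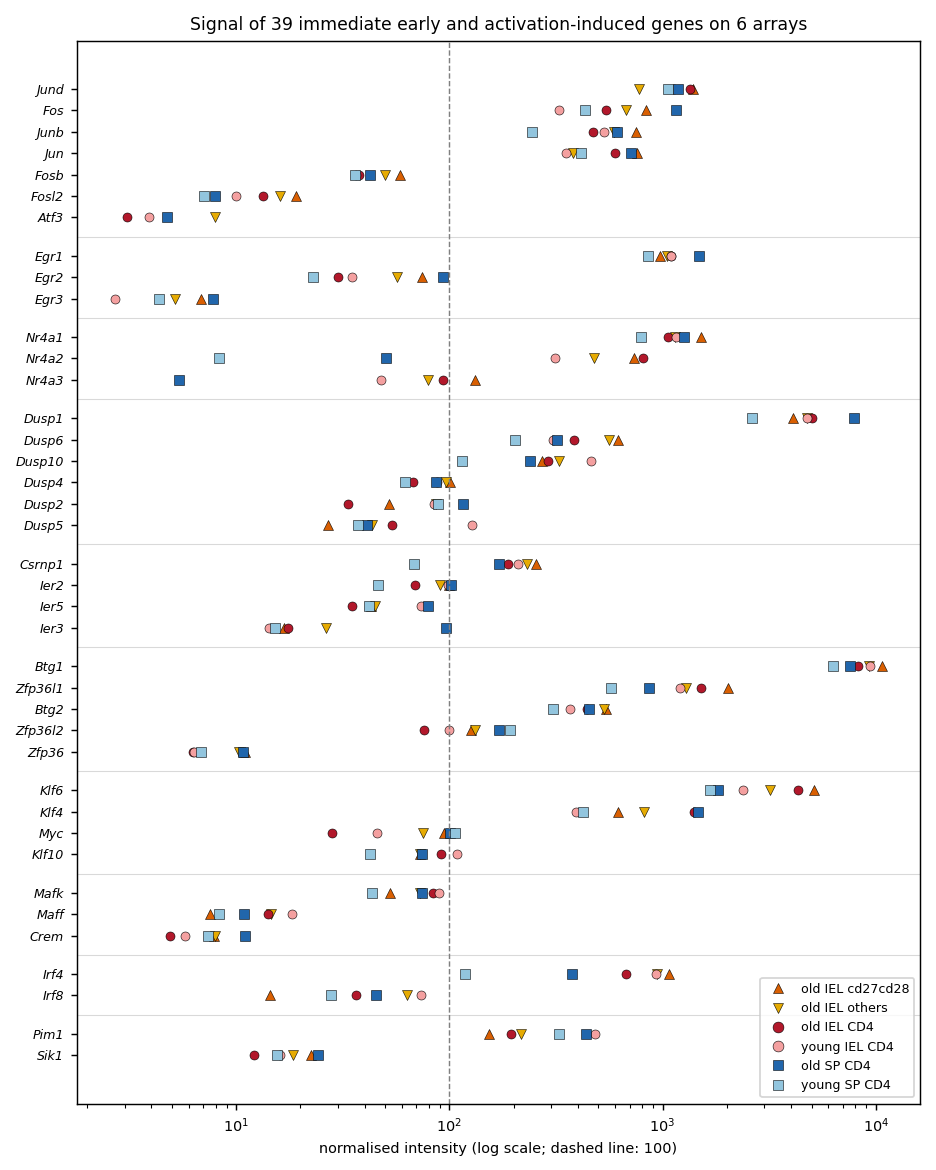
Signal (normalised intensity, log axis) of the 39 genes, grouped by role, with 1 marker per array and a dashed line at 100. Light blue squares (young SP CD4) lie at the left for many genes, and Nr4a2 shows the widest spread, with 808 in old IEL CD4 and 8.28 in young SP CD4.

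Nr4a2 had the largest differences of the called genes, and the promoters of its family are shown first because they share a feature. Nr4a1, Nr4a2 and Nr4a3 encode orphan nuclear receptors induced by T cell receptor signals, of which Nr4a1 (Nur77) is widely used as a reporter of that signal. The sequences are from RefSeq (GRCm38.p6), 250 bases before to 50 after the annotated start, written 5′ to 3′ along the gene, with the core of the cAMP response element (CRE), TGACG or CGTCA on the other strand, in capitals.
Nr4a1 (chr15:101266596-101266895, plus strand): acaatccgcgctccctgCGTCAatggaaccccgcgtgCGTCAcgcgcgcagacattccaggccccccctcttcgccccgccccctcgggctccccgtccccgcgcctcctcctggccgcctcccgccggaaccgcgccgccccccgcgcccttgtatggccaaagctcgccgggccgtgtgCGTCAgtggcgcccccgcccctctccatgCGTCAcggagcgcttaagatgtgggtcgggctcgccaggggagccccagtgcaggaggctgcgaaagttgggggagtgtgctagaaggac
Nr4a2 (chr2:57123954-57124253, minus strand): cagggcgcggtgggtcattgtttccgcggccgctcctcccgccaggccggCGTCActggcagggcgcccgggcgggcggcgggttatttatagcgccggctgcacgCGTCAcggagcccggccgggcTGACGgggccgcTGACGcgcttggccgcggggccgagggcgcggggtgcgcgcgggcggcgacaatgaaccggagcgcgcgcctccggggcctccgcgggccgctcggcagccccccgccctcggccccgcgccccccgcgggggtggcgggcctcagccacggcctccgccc
Nr4a3 (chr4:48045055-48045354, plus strand): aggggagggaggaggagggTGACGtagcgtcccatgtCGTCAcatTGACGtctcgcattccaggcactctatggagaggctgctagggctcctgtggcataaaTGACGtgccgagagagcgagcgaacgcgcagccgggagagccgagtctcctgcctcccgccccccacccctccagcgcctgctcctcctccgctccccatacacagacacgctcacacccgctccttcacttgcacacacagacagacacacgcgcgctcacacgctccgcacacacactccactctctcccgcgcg
Each of these held 4 CRE cores. That many were found in 76 of 32851 promoters (0.231%), and in no other of the 41 promoters of the set. The cutoff of 4 is the count seen in these promoters and was not set beforehand, so the share is a description only. A match is a description of letters and not a measured binding site.

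Nr4a2 was at 733 in old IEL cd27cd28, 478 in old IEL others, 808 in old IEL CD4, 314 in young IEL CD4, 50.2 in old SP CD4 and 8.28 in young SP CD4. It was bright on all 4 IEL arrays and dim on both SP arrays. IEL CD4 exceeded SP CD4 16.1-fold in old mice and 38.0-fold in young mice, and old exceeded young 2.57-fold in IEL CD4. The young fold rests on the signal of 8.28 in young SP CD4. With 16 added before log2 the tissue difference was 3.64 on the log2 scale in old and 3.77 in young mice, and with normexp 2.63 in old and 1.84 in young mice, where the young call was lost and the order of the ages turned. In SP CD4 the old array was 6.07-fold above the young one, but neither reached 100. Nr4a3, a related receptor, was likewise brighter on the IEL arrays. It was at 131 in old IEL cd27cd28, 79.0 in old IEL others, 93.2 in old IEL CD4, 47.6 in young IEL CD4 and 5.41 in old SP CD4, and was not above background in young SP CD4. Against the lowest detected signal of young SP CD4, young IEL CD4 was at least 19.5-fold higher and old SP CD4 at least 2.21-fold higher, and old IEL CD4 was 17.2-fold above old SP CD4 with a signal under 100. Nr4a1 varied less and kept over 100 on every array, between 1513 in old IEL cd27cd28 and 796 in young SP CD4, with no call in any comparison, but with normexp it was called higher with age in SP CD4, lower with age in IEL CD4 and higher in young IEL than in young SP CD4.

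**Figure D2:**
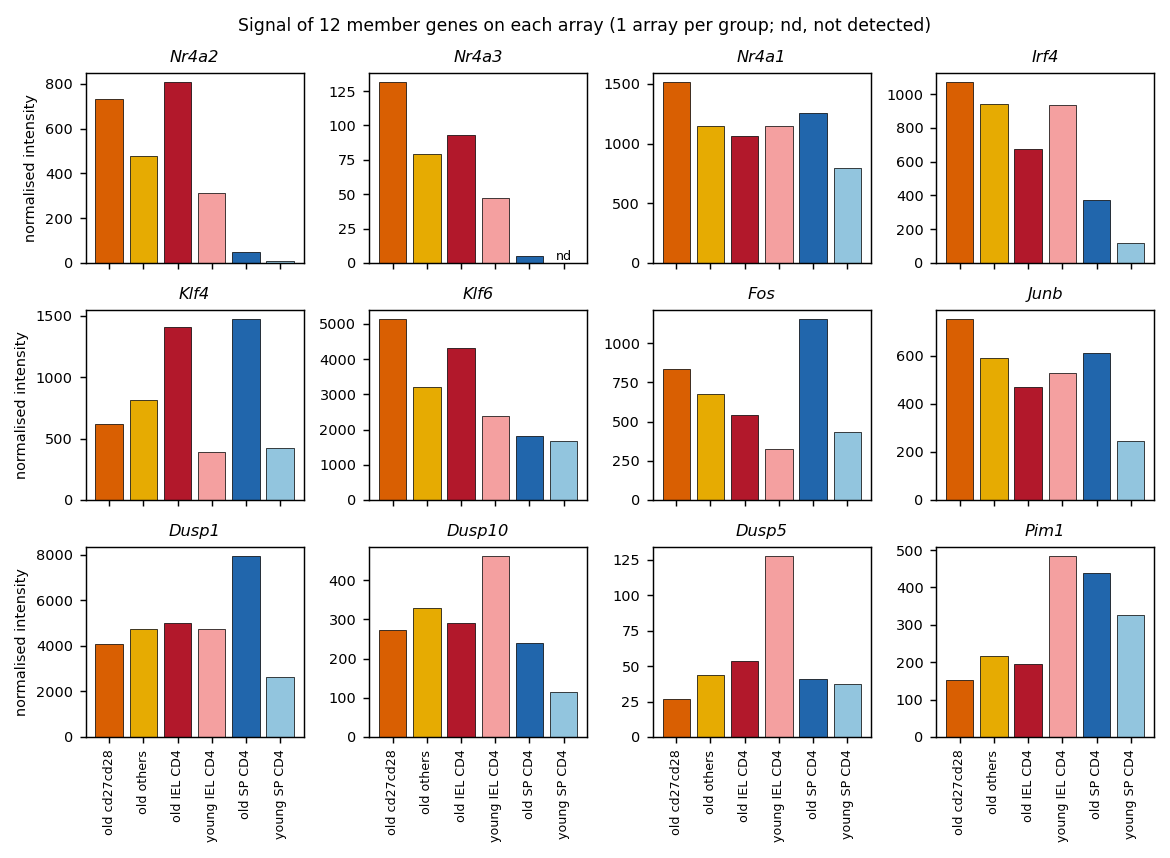
Signal (normalised intensity, linear axes from 0, 1 bar per array) of 12 genes. Nr4a2 and Nr4a3 are highest on the IEL arrays, Klf4 is at 1406 and 1472 in old IEL CD4 and old SP CD4, and Dusp5 is highest in young IEL CD4 at 127.

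With age, most genes of the set were brighter in SP CD4. In old against young SP CD4, 35 of 37 genes measured on both arrays differed above 0, against 57.9% of 15052 genes, with a median log2 difference of 0.67 against 0.07 for all genes. With normexp 24 of the 37 lay above the median of all genes (35 without it), and the medians were 0.13 for the set and 0.02 for all genes. The calls were 8 higher and 0 lower, where 1.28% of all genes were higher and 0.226% lower. A signal over 100 was reached by 21 of the 37 genes and by 4476 of the 15052. The genes called were Klf4, Irf4, Dusp1, Fos, Csrnp1, Junb, Ier2 and Dusp10, and with normexp Klf4 alone kept its call. A further 3 genes exceeded 2-fold with both signals under 100, namely Ier3 (6.35-fold), Nr4a2 and Egr2 (4.08-fold). The exceptions below 0 were Zfp36l2 and Myc, at log2 differences of -0.17 and -0.07, and 8 of the 37 lay within 2 SD of the spot error. Myeloid markers summed to 215 in old and 107 in young SP CD4, largely through Cd74 (100.4 against 18.2), an MHC class II chaperone also made by B cells, and without it to 114 in old and 88.4 in young. Fcgr3 ran the other way, at 13.9 in old and 25.3 in young SP CD4, and the B cell genes summed to 92.7 in old and 57.2 in young. The part of these markers in the differences of the set was not tested.

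In IEL CD4 the same age comparison gave no shift to one side. Of 38 genes, 15 differed above 0, against 40.7% of 13753 genes, with a median of -0.17 against -0.09 for all genes. Klf4 and Nr4a2 were higher in old IEL CD4 and Dusp5 and Pim1 were lower, where 0.734% of all genes were higher and 1.14% lower. Of these calls normexp kept Nr4a2 and Pim1. A signal over 100 was reached by 20 of the 38 genes and by 4082 of the 13753. Quantile normalization turned the 101 higher and 157 lower genes of the whole array into 136 and 136. Dusp2 (2.54-fold), Ier5 (2.11-fold) and Irf8 (2.01-fold) were lower with signals under 100, and 18 of the 38 lay within 2 SD of the spot error. Epithelial markers summed to 355 in old and 686 in young IEL CD4, an order set by Reg3b alone (15.1 against 446), since without it the sums were 339.9 in old and 239.8 in young IEL CD4. Of 11 measured on both arrays 6 were above 0, with a median of 0.08, among them Fabp2 (74.8 against 10.9) and Cdh1 (61.1 against 20.3). Krt8 (9.21 in old against 22.0 in young), Krt19 (7.31 against 17.3) and Epcam (11.2 against 21.7) went the other way, as did Reg3b. Their part in the differences of the set was not tested.

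Side by side, the age difference was lower in IEL CD4 than in SP CD4 for 32 of the 36 genes measured in both, as it was for 63.1% of 13553 genes. The IEL less the SP log2 difference had a median of -0.83 in the set and -0.18 over all genes. The signs were opposite for 20, whatever the size of the differences, all of them below 0 in IEL and above 0 in SP (35.9% of all genes), while 14 were above 0 in both (23.3% of all genes) and 2 below 0 in both (23.6% of all genes). Klf4 was the only gene of the set called higher with age in both tissues, as were 0.192% of all genes, and no gene was called in opposite directions. This difference between tissues was not tested.

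**Figure D3:**
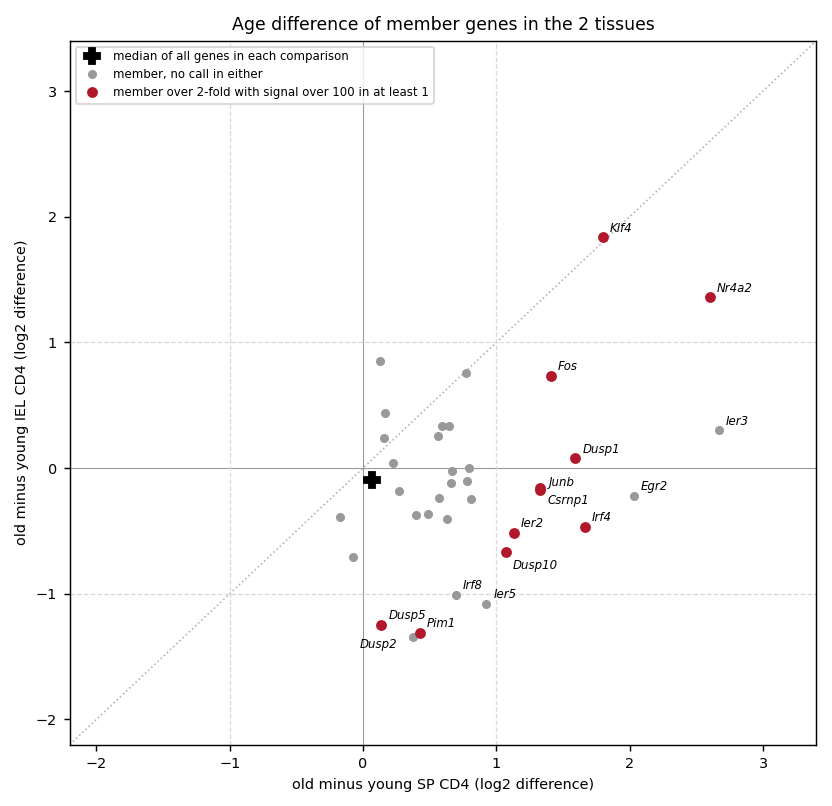
Log2 difference of old minus young in IEL CD4 (vertical axis) against that in SP CD4 (horizontal axis), with 1 point per gene of the set and a black cross at the median of all genes (-0.09 in IEL, 0.07 in SP). Of 36 points, 32 lie below the dotted line of equal differences, and Klf4 lies on it at 1.84 in IEL and 1.80 in SP.

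Between tissues, the set was brighter in young IEL CD4 than in young SP CD4. Of 37 genes, 27 differed above 0, against 30.5% of 14137 genes, with a median of 0.53 against -0.28, and 32 lay above the median of all genes. Nr4a2, Irf4, Dusp10, Dusp5, Csrnp1, Klf10, Junb and Zfp36l1 were called higher and Myc lower, where 2.54% of all genes were higher and 3.03% lower. A signal over 100 was reached by 22 of the 37 genes and by 4458 of the 14137. With normexp only Irf4 and Zfp36l1 kept their call, and the medians were 0.21 for the set and -0.04 for all genes. The 359 higher and 429 lower genes of the whole array became 440 and 334 after quantile normalization. A further 4 genes were over 2-fold higher with signals under 100, namely Irf8 (2.64-fold), Maff (2.21-fold), Ier2 (2.12-fold) and Mafk (2.07-fold). This comparison and that of old with young SP CD4 share the young SP array, so that its low signals enter both.

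In old mice the set lay above the other genes by less, 0.21 on the log2 scale between the medians, against 0.81 in young mice, and this change was not tested. In old IEL CD4 against old SP CD4, 15 of 38 genes differed above 0, against 19.4% of 14052 genes, and the median was -0.25 against -0.46, with 24 of 38 above the median of all genes. Quantile normalization moved the median of all genes to -0.02 and that of the set to 0.074, so the sign of the set's median depends on the scaling. Nr4a2 and Klf6 were called higher, against 1.49% of all genes, and Dusp2, Fos, Myc, Pim1 and Zfp36l2 lower, against 4.08% of all genes, and after quantile normalization Dusp2 was the only one still called lower while Irf4 and Nr4a3 were added to those higher. The 210 higher and 574 lower genes of the whole array became 329 and 291. With normexp Nr4a2 alone kept its call. Without these changes a signal over 100 was reached by 22 of the 38 genes and by 4513 of the 14052. Among genes under 100, Nr4a3 was higher in old IEL CD4, and Ier3 (5.48-fold), Egr2 (3.11-fold), Ier5 (2.28-fold), Crem (2.24-fold) and Sik1 (12.1 against 24.1) were lower than in old SP CD4.

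**Figure D4:**
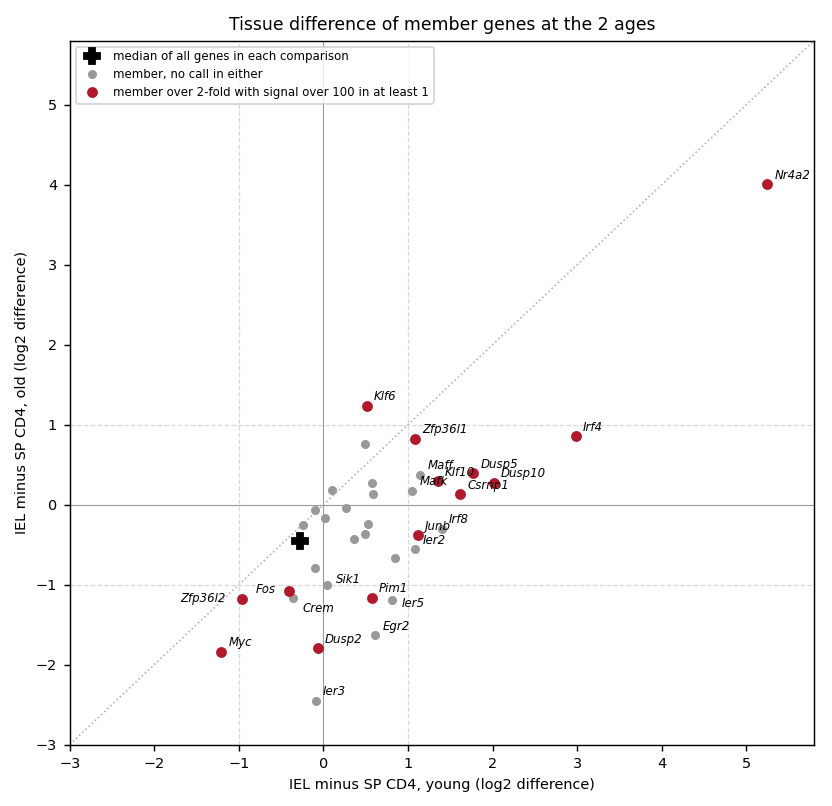
Log2 difference of IEL minus SP CD4 in old mice (vertical axis) against that in young mice (horizontal axis), with 1 point per gene of the set and a black cross at the median of all genes (-0.46 old, -0.28 young). Nr4a2 stands apart at 4.01 in old and 5.25 in young mice, and Myc is lowest of the called genes at -1.84 in old and -1.21 in young mice.

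Old IEL cd27cd28 against old IEL others gave 1 call in this set. Of 38 genes, 23 differed above 0, against 60.5% of 16016 genes, the median was 0.13 against 0.08, and 21 lay within 2 SD of the spot error. Jun was the only call, higher in cd27cd28, where 0.137% of all genes were higher and 0.78% lower. A signal over 100 was reached by 21 of the 38 genes and by 4665 of the 16016. With normexp the whole array turned from 22 genes higher and 125 lower to 166 higher and 102 lower, and Irf4, Jund and Zfp36l1 were called higher in place of Jun. Irf8, a myeloid and lymphoid transcription factor, was 4.37-fold lower in cd27cd28 at 14.5 against 63.3 in others. Beside this, Lyz2, a lysozyme of myeloid cells, was at 12.2 in cd27cd28 and 711 in others, and Krt8, an epithelial keratin, was at 6.89 in cd27cd28 and 375 in others, and their part in the difference was not tested.

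**Figure D5:**
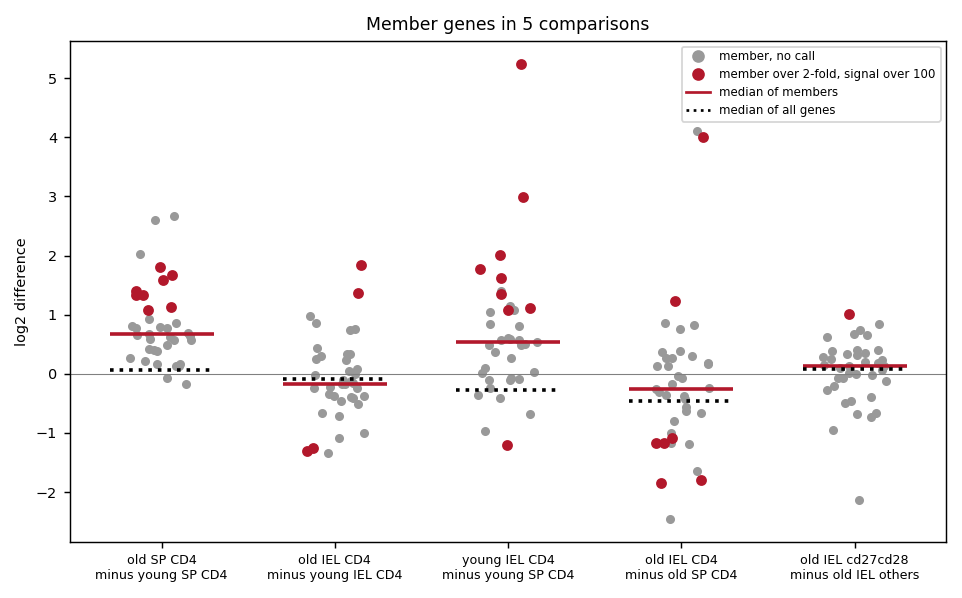
Log2 difference (vertical axis) of each gene of the set in the 5 comparisons, with red points for called genes, a red line at the median of the set and a dotted line at that of all genes. The medians of the set and of all genes are 0.67 and 0.07 for age in SP, and 0.13 and 0.08 for cd27cd28 minus others.

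Fos and Junb, AP-1 subunits, and the phosphatase gene Dusp1 were among the genes higher in old SP CD4. AP-1 is a dimer of FOS and JUN proteins, and DUSP1 removes the activating phosphates from MAP kinases. The promoters of Fos and Dusp1, with CRE cores in capitals, are as follows, and in Dusp1 a pair of overlapping cores forms a full CRE (TGACGTCA).
Fos (chr12:85473640-85473939, plus strand): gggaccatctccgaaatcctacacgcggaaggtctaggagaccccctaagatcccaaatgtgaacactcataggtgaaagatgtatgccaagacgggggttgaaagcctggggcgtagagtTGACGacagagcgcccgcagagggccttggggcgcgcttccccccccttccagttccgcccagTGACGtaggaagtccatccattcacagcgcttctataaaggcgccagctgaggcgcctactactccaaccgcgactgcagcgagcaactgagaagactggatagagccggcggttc
Dusp1 (chr17:26508423-26508722, minus strand): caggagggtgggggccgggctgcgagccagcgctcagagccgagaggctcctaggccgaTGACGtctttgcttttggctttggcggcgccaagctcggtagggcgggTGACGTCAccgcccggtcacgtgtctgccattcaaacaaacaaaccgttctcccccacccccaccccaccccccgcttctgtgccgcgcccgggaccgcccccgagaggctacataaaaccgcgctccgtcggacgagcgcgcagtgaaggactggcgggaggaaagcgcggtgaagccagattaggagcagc
A core was present in 23 of 41 promoters of the set (56.1%, for 30 genes matched in RefSeq) and in 20.8% of 32851 promoters, and a full CRE in 3 (7.32%) and 1.79%. The AP-1 element TGANTCA was in 2 (4.88%), those of Csrnp1 and Zfp36l1, and in 7.81% of all promoters. TATAA was in 12 (29.3%) and in 24.9% of all promoters, and by gene in 12 of 30 (40%) and in 28.0% of all genes.

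Of the AP-1 subunits, Fos was at 835 in old IEL cd27cd28, 674 in old IEL others, 543 in old IEL CD4, 327 in young IEL CD4, 1152 in old SP CD4 and 434 in young SP CD4. It was highest in old SP CD4, 2.65-fold above young SP CD4, and old IEL CD4 was 2.12-fold below old SP CD4. Both directions reversed with normexp, to -0.52 for age in SP CD4 and 0.60 for old IEL against old SP CD4 on the log2 scale. Junb was at 753 in old IEL cd27cd28, 591 in old IEL others, 470.2 in old IEL CD4, 531 in young IEL CD4, 614 in old SP CD4 and 245 in young SP CD4. Young SP CD4 was the low array, with old SP CD4 2.51-fold and young IEL CD4 2.17-fold above it, and both calls were lost with normexp. Jun was at 761 in old IEL cd27cd28, 378 in old IEL others, 595 in old IEL CD4, 352 in young IEL CD4, 711 in old SP CD4 and 416 in young SP CD4. Old cells were the brighter ones in both tissues, by log2 differences of 0.76 in IEL and 0.77 in SP, short of 2-fold, and cd27cd28 was 2.01-fold above others (-0.035 on the log2 scale with normexp). Fosb had no call, Jund had none but was called higher with normexp for age in SP CD4, for young IEL against young SP CD4 and in cd27cd28, Fosl2 was at most 19.1, and Atf3, a stress-induced partner of JUN, was at most 7.95 and was not above background in cd27cd28 and young SP CD4, so that cd27cd28 was at least 3.82-fold below others.

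The EGR zinc finger factors had no call, but with normexp Egr1 was called higher in old SP CD4 than in young SP CD4 and higher in IEL than in SP CD4 at both ages. Egr1 was between 1479.6 in old SP CD4 and 853 in young SP CD4. Egr2, which with Egr3 restrains T cell activation, was at 93.6 in old SP CD4 and 22.9 in young SP CD4, and at 30.1 and 35.1 in old and young IEL CD4. Egr3 was at most 7.82 and was not above background in old IEL CD4, which was at least 3.14-fold below old SP CD4 and at least 1.08-fold below young IEL CD4.

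The MAP kinase phosphatases differed from one another. Dusp1 was at 4097 in old IEL cd27cd28, 4734 in old IEL others, 5009.8 in old IEL CD4, 4743 in young IEL CD4, 7942 in old SP CD4 and 2634 in young SP CD4. Old SP CD4 stood highest, 3.02-fold above young SP CD4, while the IEL arrays lay between the SP arrays. This order depended on the background. With normexp the call for age in SP CD4 was lost, and Dusp1 was called higher in IEL than in SP CD4 at both ages. Dusp10, which acts on JNK and p38, was at 272 in old IEL cd27cd28, 328 in old IEL others, 289 in old IEL CD4, 461 in young IEL CD4, 239.6 in old SP CD4 and 114 in young SP CD4. Young SP CD4 was again lowest, with old SP CD4 2.10-fold and young IEL CD4 4.04-fold above it, and both calls were lost with normexp. Dusp5, a nuclear phosphatase of ERK, was at 27.0 in old IEL cd27cd28, 43.4 in old IEL others, 53.7 in old IEL CD4, 127 in young IEL CD4, 41.0 in old SP CD4 and 37.3 in young SP CD4. It was high in young IEL CD4 alone, 3.42-fold above young SP CD4, and old IEL CD4 was 2.37-fold lower than young. Both calls were lost with normexp. Dusp2 was at 51.9 in old IEL cd27cd28, 86.3 in old IEL others, 33.3 in old IEL CD4, 84.6 in young IEL CD4, 115 in old SP CD4 and 88.8 in young SP CD4. It was lowest in old IEL CD4, 3.46-fold below old SP CD4, a direction that normexp turned to 0.37 on the log2 scale. Dusp6, a cytoplasmic phosphatase of ERK, and Dusp4 had no call.

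The Dusp5 promoter is shown because it held a pair of CArG boxes, the element of serum response factor (SRF), which were found in 6 of 41 promoters of the set (14.6%) and in 1.63% of all promoters. The 6 belong to Dusp5, Zfp36 and Egr2, whose 4 promoters with a box include overlapping ones. By gene the share was 3 of 30 (10%) in the set and 1.81% over all genes. CArG boxes and the CRE core are in capitals.
Dusp5 (chr19:53528895-53529194, plus strand): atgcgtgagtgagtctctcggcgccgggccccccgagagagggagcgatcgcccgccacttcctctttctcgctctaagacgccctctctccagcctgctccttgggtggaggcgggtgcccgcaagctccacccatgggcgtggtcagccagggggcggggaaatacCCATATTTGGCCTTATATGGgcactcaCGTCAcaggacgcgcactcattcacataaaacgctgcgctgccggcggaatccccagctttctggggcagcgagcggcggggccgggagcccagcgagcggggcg
Srf, picked for this element from the upstream list given below after the promoters were read, had signals of 45.6 in old and 54.4 in young IEL CD4 and of 91.8 in old and 84.0 in young SP CD4, without a call in these comparisons. Old IEL CD4 was below old SP CD4 by -1.01 on the log2 scale, with both signals under 100.

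Of the IER and CSRNP genes, Csrnp1 was at 255 in old IEL cd27cd28, 232 in old IEL others, 187 in old IEL CD4, 209 in young IEL CD4, 171 in old SP CD4 and 68.2 in young SP CD4. The young SP array stood below the others, with old SP CD4 2.51-fold and young IEL CD4 3.06-fold above it, and both calls were lost with normexp. Ier2, a nuclear protein induced by growth signals, was at 99.5 in old IEL cd27cd28, 90.7 in old IEL others, 68.9 in old IEL CD4, 98.4 in young IEL CD4, 101 in old SP CD4 and 46.4 in young SP CD4. Old SP CD4 was 2.19-fold above young SP CD4 and only just over 100. Ier3, a survival factor, stayed under 100, with 96.0 in old SP CD4 and between 14.2 and 26.4 on the other arrays.

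Antiproliferative and mRNA decay genes had no call with age, with log2 differences between -0.39 and 0.33 in IEL and between -0.17 and 0.67 in SP. Zfp36l1, which binds AU-rich elements and speeds mRNA decay, was at 2024 in old IEL cd27cd28, 1287 in old IEL others, 1522 in old IEL CD4, 1207 in young IEL CD4, 860.3 in old SP CD4 and 570.1 in young SP CD4. All IEL arrays were above both SP arrays, and young IEL CD4 was 2.12-fold above young SP CD4. Zfp36l2, of the same family, was at 126 in old IEL cd27cd28, 132 in old IEL others, 75.6 in old IEL CD4, 99.1 in young IEL CD4, 171 in old SP CD4 and 193 in young SP CD4. It ran the other way, with both SP arrays highest and old IEL CD4 2.26-fold below old SP CD4. Btg1 and Btg2, which hold cells in quiescence, had no call (Btg1 was called lower in old IEL CD4 with normexp), with Btg1 at 8292 and 9388 in old and young IEL CD4 and 7552 and 6274 in old and young SP CD4, and Zfp36 was at most 11.0.

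Klf4, a zinc finger factor that restrains T cell proliferation, was at 617 in old IEL cd27cd28, 815 in old IEL others, 1406 in old IEL CD4, 394 in young IEL CD4, 1472 in old SP CD4 and 423 in young SP CD4. The old CD4 arrays of both tissues were well above the young ones, by 3.57-fold in IEL and 3.48-fold in SP, and the tissues differed by -0.07 on the log2 scale in old and -0.10 in young mice. With normexp the difference in IEL was 0.52 on the log2 scale, short of a call. Klf6, an early response factor of the same family, was at 5130.1 in old IEL cd27cd28, 3203 in old IEL others, 4303 in old IEL CD4, 2379.6 in young IEL CD4, 1824 in old SP CD4 and 1669 in young SP CD4. The IEL arrays were the higher ones, and old IEL CD4 was 2.36-fold above old SP CD4. Klf10, a TGF-beta induced repressor, was at 72.5 in old IEL cd27cd28, 73.1 in old IEL others, 91.5 in old IEL CD4, 108 in young IEL CD4, 74.6 in old SP CD4 and 42.5 in young SP CD4. Young IEL CD4 was 2.55-fold above young SP CD4, a call lost with normexp. Myc, the driver of growth in activated T cells, was at 94.3 in old IEL cd27cd28, 74.9 in old IEL others, 28.1 in old IEL CD4, 45.8 in young IEL CD4, 101 in old SP CD4 and 106 in young SP CD4. The SP arrays stood above the IEL CD4 arrays, which were 3.58-fold lower in old and 2.31-fold lower in young mice.

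Irf4, which sets the strength of effector differentiation, was at 1070.4 in old IEL cd27cd28, 939.6 in old IEL others, 677 in old IEL CD4, 935 in young IEL CD4, 374 in old SP CD4 and 118 in young SP CD4. All IEL arrays were above both SP arrays, with old SP CD4 3.17-fold and young IEL CD4 7.91-fold above young SP CD4. With normexp the call for age in SP CD4 was lost and that for young IEL CD4 was kept. Pim1, a serine/threonine kinase of survival, was at 153 in old IEL cd27cd28, 216 in old IEL others, 195 in old IEL CD4, 484 in young IEL CD4, 438 in old SP CD4 and 326 in young SP CD4. The old IEL arrays were the low ones, with old IEL CD4 2.48-fold below young IEL CD4 and 2.24-fold below old SP CD4. The kinase gene Sik1, the small MAF genes Maff and Mafk and the cAMP-responsive factor Crem stayed under 100 on every array. In all, 18 of 39 genes were called in at least 1 comparison and 21 in none, where 8.46% of 16258 genes had a call. Both counts include genes too dim to be called, and they are not at like brightness.

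Other genes of the same response were read from lists chosen by name. For these lists too, the shares of all genes called higher or lower are those given above for each comparison. Of the upstream route, from Zap70 to the factors that bind the promoters, 27 of 34 genes were named. In old against young SP CD4 1 of 27 measured was higher and 0 lower, with a median of 0.06 (0.07 for all genes). In IEL CD4 0 of 26 were higher and 1 lower, with a median of -0.16 (-0.09 for all genes). The calls were Zap70, the kinase that starts the cascade, at 731 in old and 288 in young SP CD4, and the calcium-responsive factor Nfatc3, at 154 in old and 345 in young IEL CD4. Prkcq, protein kinase C theta, was lower in IEL CD4 at both ages, at 109.9 against 329.7 in old and 126 against 603 in young mice. Of 26 genes, IEL against SP CD4 gave 0 higher and 1 lower in old mice, with a median of -0.33 against -0.46 for all genes. In young mice 1 was higher and 1 lower, with a median of -0.22 against -0.28 for all genes. The comparison of cd27cd28 with others gave no call of 27.

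Other activation-induced genes, a list of surface and secreted proteins with the intracellular regulators Nfkbia, Nfkbid, Tnfaip3, Gadd45b, Rgs1 and Rgs2, had a call in every comparison. In old against young SP CD4 8 of 16 were higher and 0 lower, with a median of 1.12 (0.07 for all genes). In young IEL against young SP CD4 10 of 16 were higher, 6 of them intracellular regulators, with a median of 1.49 (-0.28 for all genes). Both sets of calls included Ifng, Gadd45b, Rgs1 and Icos, and the second also Cd69 and Il2. In old IEL against old SP CD4 2 of 17 were higher and 1 lower, with a median of 0.09 (-0.46 for all genes). In old against young IEL CD4 0 of 17 were higher and 1, the intracellular Gadd45b, was lower, with a median of -0.15 (-0.09 for all genes). Ifng, the cytokine of cellular immunity, was at 15452 in old IEL cd27cd28, 10403 in old IEL others, 9447 in old IEL CD4, 6281 in young IEL CD4, 2379 in old SP CD4 and 169 in young SP CD4. Rgs1, a brake on chemokine signals, was at 24998 and 26694 in old and young IEL CD4 and 2188 and 657 in old and young SP CD4. The fractions differed here, with 0 of 17 higher and 4 lower in cd27cd28 than in others, namely Tnfrsf4 (OX40, 152 against 1227), Il2 (22.5 against 171), Icos (150.1 against 474) and Tnfrsf9 (CD137, 72.8 against 206). This list overlaps one already described with these arrays known, and is no independent support.

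Heat shock genes, which answer to stress and to the handling of cells, were higher in part in old cells of both tissues. In old against young SP CD4 4 of 9 were higher and 0 lower, with a median of 1.01 (0.07 for all genes). In old against young IEL CD4 3 of 9 were higher and 0 lower, with a median of 0.92 (-0.09 for all genes). Of 9, IEL against SP CD4 gave 0 higher and 2 lower in old and no call in young mice, and cd27cd28 against others gave none. Hspa1a, an inducible chaperone, was at 502 in old and 31.7 in young IEL CD4 and at 432 in old and 24.05 in young SP CD4. The part of stress or handling in the values of the set was not tested.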

How the data were processed

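Total RNA of sorted T cells was labelled with Cy5 and hybridised to Toray 3D-Gene mouse oligonucleotide 24k arrays, read at 635 nm at 3 gains. The deposited scanner intensity of each spot was the input. The mean of the blank spots, with 5% left out at each end, was subtracted, probes more than 2 SD above it counted as detected, and each array was scaled so that the median of its detected probes was 25. Against the normalised intensity that the authors deposited, Pearson's r was 1 for each array. Of 23473 probes 20690 had 1 gene symbol in the platform annotation and 2783 none, and a gene's value was the mean log2 signal of its probes. The 40 genes and the other gene lists were chosen with earlier results of these data known. Genes called in at least 1 comparison were given with all signals, and the others by range and count. A gene undetected on 1 array was given as a bound against the lowest detected signal of that array. Background correction, normalization, the signal minimum, the fold threshold, a constant added before log2, the value table and the choice of probe were varied. The steps were checked on simulated data. Promoters came from RefSeq (GRCm38.p6), for 30 of 39 genes (not Egr1, Egr3, Dusp4, Ier2, Zfp36l2, Myc, Klf10, Crem and Sik1), and both strands were searched. Python 3.11.15, numpy 2.4.6, pandas 2.3.3, matplotlib 3.10.9, R 4.3.3 and limma 3.58.1 were used.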

Additional observations from a re-analysis of the deposited data

Results flagged for a closer look

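For 9 genes the age difference pointed above 0 in SP CD4 and below 0 in IEL CD4 and the difference of these differences exceeded 2-fold, with a signal over 100 on at least 1 of the 4 arrays. The same held for 384 of 13553 genes (2.83%). The difference was not tested, since each group had 1 array. The IEL less the SP log2 difference was -2.13 for Irf4 (-0.47 in IEL, 1.66 in SP) and -1.74 for Dusp10 (-0.67 in IEL, 1.07 in SP). It was -1.73 for Pim1 (-1.31 in IEL, 0.42 in SP), -1.72 for Dusp2 (-1.35 in IEL, 0.38 in SP) and -1.64 for Ier2 (-0.51 in IEL, 1.13 in SP). It was -1.501 for Junb (-0.17 in IEL, 1.33 in SP), -1.48 for Csrnp1 (-0.16 in IEL, 1.33 in SP), -1.38 for Dusp5 (-1.25 in IEL, 0.14 in SP) and -1.05 for Klf10 (-0.24 in IEL, 0.81 in SP). The IEL value of Csrnp1, Junb and Klf10 and the SP value of Dusp5 lay within 2 SD of the spot error. Both IEL signals were under 100 for Dusp2 and Ier2, and both SP signals were under 100 for Dusp5 and Klf10.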

How the results depend on the processing

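The 29 called differences were recomputed under 10 alternatives, giving 228 unchanged calls, 58 lost calls in the same direction and 4 reversed signs. The brightest probe (1 probe per gene), undetected probes at the lowest detected signal and no signal minimum could not remove a call, which already required detection on both arrays. The value table holds the same measurements. Each of these kept all 29 calls, so their unchanged calls say nothing on robustness. The calls of Klf4 (age, SP), Irf4 (young IEL against SP) and Nr4a2 (old IEL against SP) held under all 10. Normexp background correction lost the most calls (19, and 4 reversed) and moved the most medians (4), while the 3-fold threshold moved the most counts (8 of 10, against 7). Normexp gave 5 genes higher (Klf4, with Egr1, Jund, Nr4a1 and Zfp36l1 in place of 7 lost calls) and a median of 0.13 for age in SP, 1 higher and 4 lower for age in IEL, 7 higher, 0 lower and a median of 0.21 for young IEL against SP, 4 higher, 0 lower and a median of -0.0091 for old IEL against SP, 3 higher for cd27cd28 against others, and a median difference of age differences of -0.27. For young IEL against SP only Irf4 and Zfp36l1 kept their call. Dusp1, Egr1, Jund, Klf6 and Nr4a1 were added, and Nr4a2, Dusp10, Dusp5, Csrnp1, Klf10 and Junb were lost. For old IEL against SP Nr4a2 was kept and Dusp1, Egr1 and Zfp36l1 were added. For age in IEL the lower genes were Pim1, with Btg1, Irf4 and Nr4a1 added. It reversed Fos for age in SP (-0.52) and for old IEL against SP (0.60), Dusp2 for old IEL against SP (0.37) and Jun for cd27cd28 against others (-0.035). Quantile normalization gave 4 higher for age in IEL, 4 higher, 1 lower and a median of 0.074, reversed in sign, for old IEL against SP, and 0 higher for cd27cd28 against others, where 75th percentile scaling and adding 16 before log2 also gave 0. Adding 16 also gave 0 lower for young IEL against SP. Without a signal minimum 5 were lower for age in IEL, 10 for old IEL against SP and 1 for cd27cd28 against others. A minimum of 200 gave 1 lower for age in IEL, 0 for young and 2 for old IEL against SP. A 3-fold threshold gave 3 higher for age in SP, 1 higher and 0 lower for age in IEL, 5 higher and 0 lower for young and 1 higher and 2 lower for old IEL against SP, and 0 higher for cd27cd28 against others. With normexp the whole array had 206 genes higher and 280 lower for age in SP (193 and 34 without it), 133 and 454 for age in IEL (101 and 157), 493 and 175 for young IEL against SP (359 and 429) and 231 and 257 for old IEL against SP (210 and 574). The causes were not tested. The value table, the brightest probe and undetected probes at the lowest detected signal changed no call. No paired analysis was possible because each group had 1 array and no replicate number.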
